A study of Mus musculus with 8 samples.

Results

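The first step of the injury response of muscle mesenchymal progenitors is described here, as the difference between 1 library made 1 day after notexin injury and 1 library made from quiescent progenitors. The deposited table holds 23846 rows in 8 libraries. A row was compared when its locus spanned at least 200 bp and its level reached 5 FPKM (fragments scaled to the length of the transcript and the size of the library) in the higher of both libraries. This left 8647 genes, taken from 23067 rows of at least 200 bp, and 779 shorter rows were not compared. Differences are of log2(FPKM + 1), day 1 minus quiescent, and a gene is called higher or lower when the difference reaches 1 in size, which is 2-fold on that scale. The added 1 understates the change of genes with low FPKM.

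Both libraries came from C57BL/6J mice of the genotype Hic1CreERT2/CreERT2; Rosa26LSLtdTomato/+, in which tamoxifen lets a Cre made under control of the Hic1 locus switch on a red reporter for good. Both Hic1 alleles carry the Cre, in the quiescent mice as well. The day 1 library was made from tdTomato+ progenitors sorted from the hindlimb muscle of mice injured with notexin, a phospholipase from snake venom that kills muscle fibres and spares their stem cells, and the quiescent library from tdTomato+ progenitors of the same tissue that the labels call quiescent. All of these mice were given 2.5 mg of tamoxifen daily over 5 days at 8 weeks of age, with a washout of 10 days, so the alleles and the drug were shared by both groups. The reporter also marks descendants of cells that used Hic1 when tamoxifen was given, whatever they became. Whether cells of several mice were pooled is not stated, and neither is any mock injection of the quiescent mice. With 1 library on each side there is no replicate check of any difference, no p-value is given, and the values describe these libraries.

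Mesenchymal progenitors, also called fibro-adipogenic progenitors, lie between the fibres of resting muscle, where they make matrix and stay out of the cell cycle. After damage they sense inflammatory signals, release chemokines and growth factors, leave quiescence and divide, before most of the added cells are cleared and the rest go back to matrix upkeep. The step out of quiescence is known in many cell types for an increase in cell size and ribosome production ahead of DNA replication, and for NF-kB and E2F transcription factors acting at promoters of early and of replication genes.

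The promoters of 4 chemokine and cytokine genes and 2 replication genes are shown. They were picked from the inflammatory and the cell cycle genes that were higher at day 1 because they hold a match to the motif marked in them. The sequences are the 250 bases before the annotated start in the RefSeq table of build GRCm38.p6, which has the coordinates of mm10, written 5′ to 3′ on the gene's strand. Capitals in the first 4 mark matches, on either strand, to GGG, any pair of bases, then TTTCC, a form of the kappaB motif read by NF-kB. The matches nearest the 5′ end begin 89 bases before the start in Cxcl1, 97 in Cxcl2, 73 in Cxcl3 and 44 in Il6.
Cxcl1, chr5:90890995-90891244, + strand: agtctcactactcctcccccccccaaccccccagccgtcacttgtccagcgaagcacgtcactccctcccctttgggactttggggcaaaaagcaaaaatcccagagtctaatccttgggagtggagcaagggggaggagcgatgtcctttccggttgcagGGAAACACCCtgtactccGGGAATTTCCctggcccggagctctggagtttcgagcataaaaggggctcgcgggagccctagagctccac
Cxcl2, chr5:90903649-90903898, + strand: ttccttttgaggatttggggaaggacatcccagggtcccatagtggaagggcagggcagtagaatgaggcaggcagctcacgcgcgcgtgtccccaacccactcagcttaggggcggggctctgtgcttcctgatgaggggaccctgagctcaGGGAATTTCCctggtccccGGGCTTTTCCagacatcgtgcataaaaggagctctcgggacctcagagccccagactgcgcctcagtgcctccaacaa
Cxcl3, chr5:90785851-90786100, + strand: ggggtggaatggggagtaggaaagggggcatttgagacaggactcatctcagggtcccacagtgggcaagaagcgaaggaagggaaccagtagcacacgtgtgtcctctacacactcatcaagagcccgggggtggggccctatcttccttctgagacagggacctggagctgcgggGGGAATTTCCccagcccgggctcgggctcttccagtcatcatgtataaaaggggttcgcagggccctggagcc
Il6, chr5:30012864-30013113, + strand: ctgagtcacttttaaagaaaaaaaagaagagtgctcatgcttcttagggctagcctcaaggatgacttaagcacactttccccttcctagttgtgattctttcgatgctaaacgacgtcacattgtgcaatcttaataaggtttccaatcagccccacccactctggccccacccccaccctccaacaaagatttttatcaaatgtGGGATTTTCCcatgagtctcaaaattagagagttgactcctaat
In the next pair capitals mark matches on either strand to TTTNNCGC, a form of the E2F motif, and in Mcm5 also TGACGTCA, the cyclic AMP response element. Each long run of capitals is made of 2 overlapping E2F matches, 1 on each strand.
Mcm5, chr8:75109259-75109508, + strand: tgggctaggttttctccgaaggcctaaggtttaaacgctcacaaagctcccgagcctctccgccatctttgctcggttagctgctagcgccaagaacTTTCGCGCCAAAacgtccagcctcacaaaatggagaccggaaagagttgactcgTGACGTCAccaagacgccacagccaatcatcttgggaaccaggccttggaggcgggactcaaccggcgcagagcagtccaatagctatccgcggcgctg
Mcm6, chr1:128359706-128359955, - strand: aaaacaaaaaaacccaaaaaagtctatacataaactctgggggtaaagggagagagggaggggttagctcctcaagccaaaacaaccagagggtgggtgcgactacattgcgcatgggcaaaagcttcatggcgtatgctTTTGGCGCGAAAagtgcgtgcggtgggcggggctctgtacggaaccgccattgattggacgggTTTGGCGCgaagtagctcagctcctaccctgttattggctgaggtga

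Motif matches were counted in the same 250 bases of every gene with 1 promoter in the table, which covered 5171 of the 8623 compared genes whose symbol stands on 1 row. The kappaB form was present in 9 of 274 genes at least 4-fold higher at day 1 (3.29%), in 0 of 150 at least 4-fold lower, in 70 of the 5171 compared (1.35%) and in 318 of all 22862 promoters (1.39%). It was present in 3 of 6 promoters of the CXC chemokine list described further on. The 9 genes 4-fold higher were Ccl9, Cxcl1, Cxcl2, Cxcl3, Dis3, Il6, Nop58, Rangrf and Serpina3n. The E2F form was present in 34 of the 274 promoters (12.4%), 6 of the 150 (4%), 444 of the 5171 (8.59%) and 1016 of all 22862 (4.44%), and in 7 of 25 promoters of replication genes (28%). The E-box CACGTG, which MYC and other factors read, was present in 11.7% of the promoters of genes 4-fold higher, 7.33% of those 4-fold lower, 8.86% of those compared and 5.92% of all promoters. The AP-1 motif TGANTCA was present in 5.47%, 5.33%, 3.87% and 6.96% of the same sets. The cyclic AMP response element was present in 10 of the 274 promoters, 1 of the 150, 144 of the 5171, 369 of the 22862 and 1 of the 25 of replication genes. These shares describe letters in a short window and were not tested, and members of a gene cluster such as Cxcl1, Cxcl2 and Cxcl3 share ancestry.

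Of the 8647 genes, 1926 were at least 2-fold higher at day 1 than in quiescent (22.3%) and 1070 at least 2-fold lower (12.4%), so 34.6% differed either way and 5651 lay within 2-fold. A difference of 4-fold was reached by 422 genes upward (4.88%) and 292 downward (3.38%). Of the 8647 genes, 859 reached 5 FPKM only at day 1 and 986 only in quiescent, and the direction of these was set by the filter. The same holds for such members of the gene lists below, also where their number is not given. The median difference was 0.26, and the middle 90% of genes ran between -1.71 and 1.98. In sorted populations a lower level in a library can mean fewer cells of a type or less RNA of the gene per cell, and these cannot be told apart. At the edge of the filter, E130012A19Rik with 5.00 FPKM at day 1 and 0.920 in quiescent and Dennd4b with 1.90 at day 1 and 5.00 in quiescent were just inside. Tsen54 with 4.87 FPKM at day 1 and 4.9996 in quiescent and Naa16 with 4.99 at day 1 and 2.76 in quiescent were just outside. By length, Rmrp at 275 bp was just inside and Snora81 at 164 bp just outside.

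**Figure D1:**
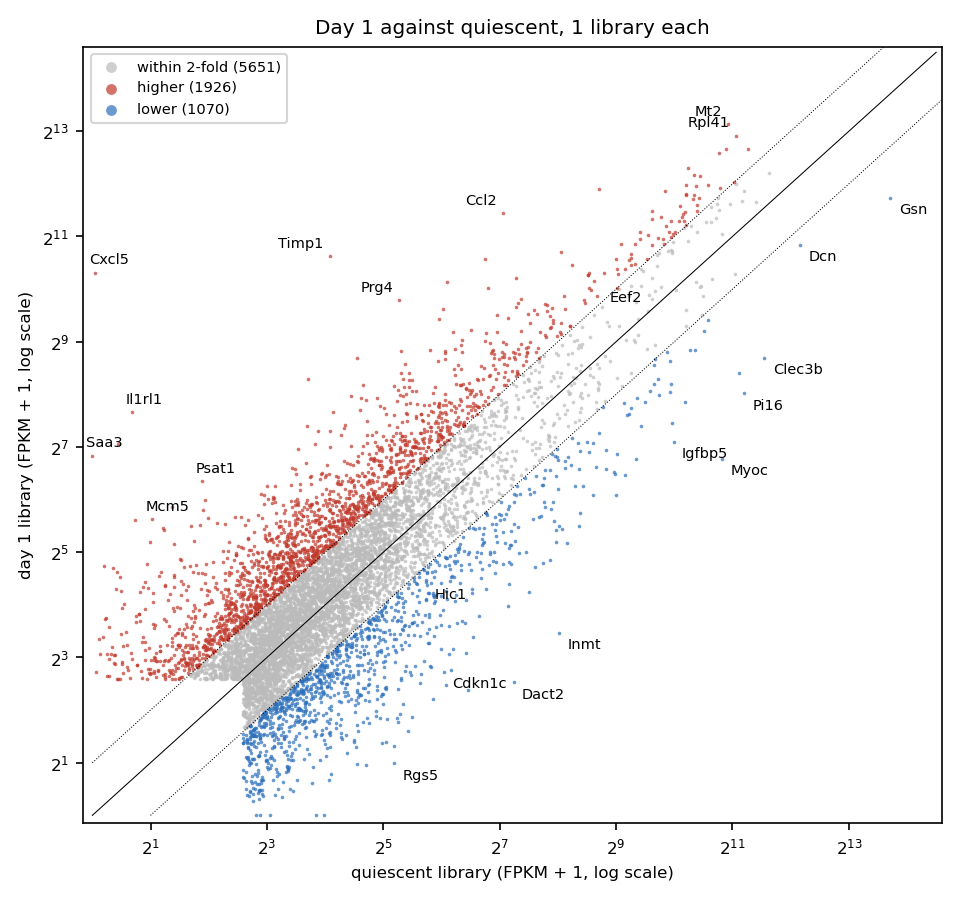
Level of each compared gene in the day 1 library (vertical axis) against the quiescent library (horizontal axis), both as FPKM + 1 on log scales, with points coloured by the 2-fold rule and dotted lines at 2-fold. The 1926 higher genes spread over the whole range of levels, and Gsn, the most abundant gene of the quiescent library, lies among the 1070 lower ones.

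The balance between higher and lower genes depended on how the libraries were put on a common scale. FPKM summed to 673684 at day 1 and 463650 in quiescent. FPKM is scaled to library size, which does not fix its sum. Ribosomal protein genes, described further on, alone summed to 182259 at day 1 and 76926 in quiescent. They are part of the sums that set the common-sum scaling. Rescaling by the median ratio lowers every day 1 level by 0.31 on the log2 scale, by the upper quartile by 0.25 and to a common sum by 0.54. The count of higher and lower genes was then 1371 and 1430 by the upper quartile, 1264 and 1511 by the median ratio, and 876 and 1982 with a common sum. The counts with a common sum, the largest of these shifts, are given beside gene list counts below as "rescaled" counts. They are to be read against 876 higher and 1982 lower of 8262 genes, in place of 1926 and 1070 of 8647 as deposited. The filter was applied again after rescaling, so a rescaled count can rest on fewer members of a list.

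**Figure D2:**
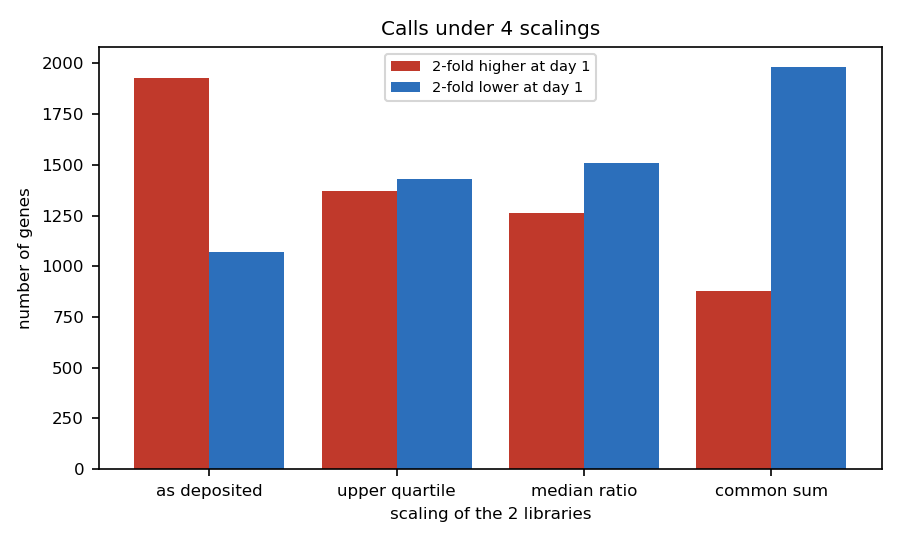
Number of genes at least 2-fold higher (red) and 2-fold lower (blue) at day 1 than in quiescent, for FPKM as deposited and under 3 rescalings of the libraries. As deposited 1926 genes were higher and 1070 lower, and with a common sum 876 were higher and 1982 lower.

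Genes at high levels moved upward more often than genes at low levels. Among 397 genes with a mean of at least 200 FPKM, 46.9% were higher at day 1 and 12.6% lower, against 13.9% higher and 15.9% lower among the 2978 genes with a mean under 10. Short loci also moved upward more. When the genes were split into 5 equal groups by locus length, the median difference was 0.48, 0.36, 0.30, 0.26 and -0.06, given by increasing length. After a correction for this trend 1857 genes were higher and 1069 lower.

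The depth behind these values was estimated from the spacing of the lowest FPKM, as 14.15 M (mega) fragments at day 1 and 18.9 M in quiescent. A transcript of 2 kb at 5 FPKM then rests on 130.9 fragments at day 1 and 174.8 in quiescent, and counting alone gives its difference a standard deviation of 0.17 on the log2 scale. This covers counting error and no difference between mice, sorts or library preparations. For a transcript of that length at that level in both libraries, a difference of 1 is therefore well outside counting error. Shorter transcripts, and genes at a lower level in 1 library, rest on fewer fragments and have a larger counting error. How often 2 libraries of the same condition would differ by 1 is not known.

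Both libraries carried the transcripts that define the labelled cells. Pdgfra, the receptor by which these cells are commonly sorted, had 153 FPKM at day 1 and 118 in quiescent, and Ly6a, which encodes the SCA1 antigen, 1682 at day 1 and 953 in quiescent. Hic1, the transcription factor gene whose locus drives the Cre, had 20.6 FPKM at day 1 and 52.2 in quiescent. Of 12 progenitor markers, 7 were lower at day 1 and none higher, and the list summed to 10187 FPKM at day 1 and 25118 in quiescent. Most of that gap is Gsn, the actin-severing protein gelsolin, with 3419 at day 1 and 13437 in quiescent. Thy1 (86.4 at day 1 and 249 in quiescent), Cd34 (376 at day 1 and 798 in quiescent) and the matrix gene Dpt (457 at day 1 and 1229 in quiescent) were lower as well.

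The markers of other cell types differed between the libraries too, and their part in the results was not tested. A member that reached 5 FPKM in 1 library alone had to lie on that library's side. Pericyte and mural markers all reached 5 FPKM, 9 of 12 in quiescent alone, and 11 were lower at day 1. They summed to 32.3 FPKM at day 1 and 190.8 in quiescent. Higd1b was at the floor of 0.001 FPKM at day 1, and Kcnj8 had 0.963 FPKM at day 1 and 22.3 in quiescent. Schwann cell markers summed to 122 FPKM at day 1 and 413 in quiescent, with 5 reaching 5 FPKM, 4 of them in quiescent alone, and all 5 lower, among them the myelin gene Mbp (2.41 at day 1 and 37.1 in quiescent), and the defining factor Sox10 at 0.0271 at day 1 and 2.32 in quiescent. Endothelial markers summed to 143 FPKM at day 1 and 319 in quiescent, of which Ramp2, Eng and Tek make up most, while the defining genes Cdh5 (0.430 at day 1 and 4.04 in quiescent) and Pecam1 (0.379 at day 1 and 1.82 in quiescent) were low. Muscle fibre markers summed to 13.6 FPKM at day 1 and 48.4 in quiescent, and 4 of 14 reached 5 FPKM, each in quiescent alone, so that their direction was set by the filter. Tenocyte markers summed to 187 FPKM at day 1 and 223 in quiescent, with 6 reaching 5 FPKM, 2 of them in quiescent alone, 5 lower and the defining factor Scx at 0.817 at day 1 and 3.72 in quiescent.

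Markers of leukocytes were low or moved the other way. Macrophage and monocyte markers summed to 281 FPKM at day 1 and 120.0 in quiescent, 7 of 10 that reached 5 FPKM were higher, and 8 of these 10 reached it only at day 1. Lyz2 had 55.2 FPKM at day 1 and 8.89 in quiescent, Tyrobp 25.8 at day 1 and 2.20 in quiescent, and the receptor gene Csf1r 2.00 at day 1 and 0.928 in quiescent. The pan-leukocyte gene Ptprc stood at 0.749 FPKM at day 1 and 0.156 in quiescent. Neutrophil markers summed to 47.0 FPKM at day 1 and 47.8 in quiescent, nearly all of it S100a8 and S100a9, with the neutrophil granule gene Elane at the floor at day 1. Lymphocyte markers summed to 0.573 FPKM at day 1 and 0.372 in quiescent, with 8 of 12 at the floor in both libraries. Satellite cell markers reached 5 FPKM in 3 of 13 cases, and Pax7, which defines that cell, was at the floor at day 1 and at 0.0381 FPKM in quiescent.

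The chemokines that draw neutrophils through CXCR2 were among the most changed genes of the day 1 library. Cxcl5 had 1269 FPKM at day 1 and 0.0354 in quiescent, the largest difference of all compared genes at 10.26 on the log2 scale. Cxcl3 had 132 FPKM at day 1 and 0.356 in quiescent and Cxcl2 312 at day 1 and 12.02 in quiescent, and Cxcl1 had 3840.3 at day 1 and was already at 416 in quiescent. Cxcl5, Cxcl3, Cxcl1 and Cxcl2 lie within 1 cluster on chromosome 5, between 90759299 and 90905938. Of 6 genes of the list in the table, 5 reached 5 FPKM, 3 of them only at day 1, and all 5 were higher, also when rescaled, while Ppbp stayed at 1.66 FPKM at day 1 and 0.523 in quiescent. Pf4 (26.5 at day 1 and 2.86 in quiescent) is among the 5, but it is a platelet and macrophage gene and not a ligand of CXCR2, and macrophage markers were higher in the same library.

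Chemokines of the CC family, which draw monocytes and eosinophils, split between these patterns. Of 15 CC chemokine and colony stimulating factor genes, 12 reached 5 FPKM, and 9 were higher and 2 lower (8 and 2 rescaled), with 5 of the 12 reaching 5 FPKM only at day 1. Ccl2 had 2780.1 FPKM at day 1 and 133 in quiescent, Ccl7 1523 at day 1 and 107 in quiescent, and Ccl8 168 at day 1 and 11.9 in quiescent. Ccl3 (12.4 at day 1 and 0.172 in quiescent) and Ccl4 (20.5 at day 1 and 0.880 in quiescent) are genes that macrophages also make. The eosinophil chemokine Ccl11 was abundant in both libraries, with 259 FPKM at day 1 and 336 in quiescent. Csf1, the growth factor of macrophages, had 419 FPKM at day 1 and 134 in quiescent, and Csf2, the GM-CSF gene, 49.3 at day 1 and 2.95 in quiescent. Il34, which encodes the other ligand of the CSF1 receptor, was lower at day 1, with 3.57 FPKM at day 1 and 22.2 in quiescent. Cxcl12, the ligand of CXCR4, had 315 at day 1 and 244 in quiescent and was not called.

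Interleukin genes were called in part. Il6, a cytokine known to support muscle stem cells and regeneration, had 279 FPKM at day 1 and 42.7 in quiescent. Its relatives Lif (35.6 at day 1 and 7.64 in quiescent) and Clcf1 (14.3 at day 1 and 4.53 in quiescent) and the receptor Osmr (27.9 at day 1 and 9.56 in quiescent) were higher. The shared receptor Il6st (80.7 at day 1 and 76.2 in quiescent) and the feedback inhibitor Socs3 (329 at day 1 and 374 in quiescent) were not called. Of the 11 members of this list that reached 5 FPKM, 4 were higher and 1 lower, beside 22.3% and 12.4% of all genes. The rescaled counts were 2 and 3, beside 876 and 1982 of 8262 genes. The median of the list was 0.08, which turned to -0.22 by the median ratio. Il1rl1, which encodes the receptor of interleukin 33, had 202 FPKM at day 1 and 0.608 in quiescent, whereas Il33 itself had 75.2 at day 1 and 65.6 in quiescent and was not called. The interleukin 1 receptor Il1r1 had 48.5 at day 1 and 19.6 in quiescent, and Il1b, mostly a macrophage product, 25.04 at day 1 and 0.273 in quiescent.

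Of 16 genes of NF-kB subunits and feedback inhibitors 14 reached 5 FPKM, and 4 were higher and none lower, near the 22.3% of all genes that were higher. None was called when rescaled. Nfkbia, the inhibitor made at once on activation, stood at 619 FPKM at day 1 and at 341 in quiescent, and Tnfaip3 at 54.0 at day 1 and 19.96 in quiescent. Of 11 prostaglandin genes that reached 5 FPKM, 4 were higher and 2 lower, beside 22.3% and 12.4% of all genes. The rescaled counts were 2 and 3 of 10, beside 876 and 1982 of 8262 genes. The inducible synthase Ptgs2 had 232 FPKM at day 1 and 79.5 in quiescent, and the prostacyclin synthase Ptgis 154 at day 1 and 48.4 in quiescent. The constitutive synthase Ptgs1 was lower, with 7.90 at day 1 and 17.3 in quiescent.

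Acute phase genes were higher for the most part and complement genes lower. Of 14 acute phase and innate defence genes 8 reached 5 FPKM, 4 of them only at day 1, with 7 higher and 1 lower (6 and 1 rescaled). Saa3 had 113 FPKM at day 1 and was listed at the floor in quiescent. Serpina3n had 229 at day 1 and 43.0 in quiescent and Ptx3, a long pentraxin, 519 at day 1 and 106 in quiescent, while Lbp, which binds bacterial lipopolysaccharide, was lower with 76.2 at day 1 and 209.8 in quiescent. Of 16 complement genes 12 reached 5 FPKM, and 8 were lower and 1 higher (10 and 0 rescaled). Serping1, the C1 inhibitor, had 587 FPKM at day 1 and 1459 in quiescent. C3 had 406 at day 1 and 816 in quiescent, C7 30.3 at day 1 and 112 in quiescent and the membrane regulator Cd55 27.4 at day 1 and 118 in quiescent. The exception was Cfb, the alternative pathway factor B, with 190.03 at day 1 and 77.1 in quiescent.

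Interferon-stimulated genes were higher in 9 of 20 cases and lower in 1 (6 and 2 rescaled), out of 23 in the table. Bst2 had 394 FPKM at day 1 and 60.6 in quiescent, Isg15 157 at day 1 and 13.7 in quiescent and Irf7 58.7 at day 1 and 16.3 in quiescent. Irf1, an early factor of the interferon gamma response, was the lower one, with 37.3 at day 1 and 102 in quiescent. Antigen presentation by MHC class I did not move with them. Of 12 genes none was higher and only H2-T23 was lower, with 38.2 FPKM at day 1 and 81.3 in quiescent, with 0 and 4 rescaled, and the median of 0.18 turned to -0.11 by the median ratio. Genes of this family resemble each other, so reads may be shared between them.

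**Figure D3:**
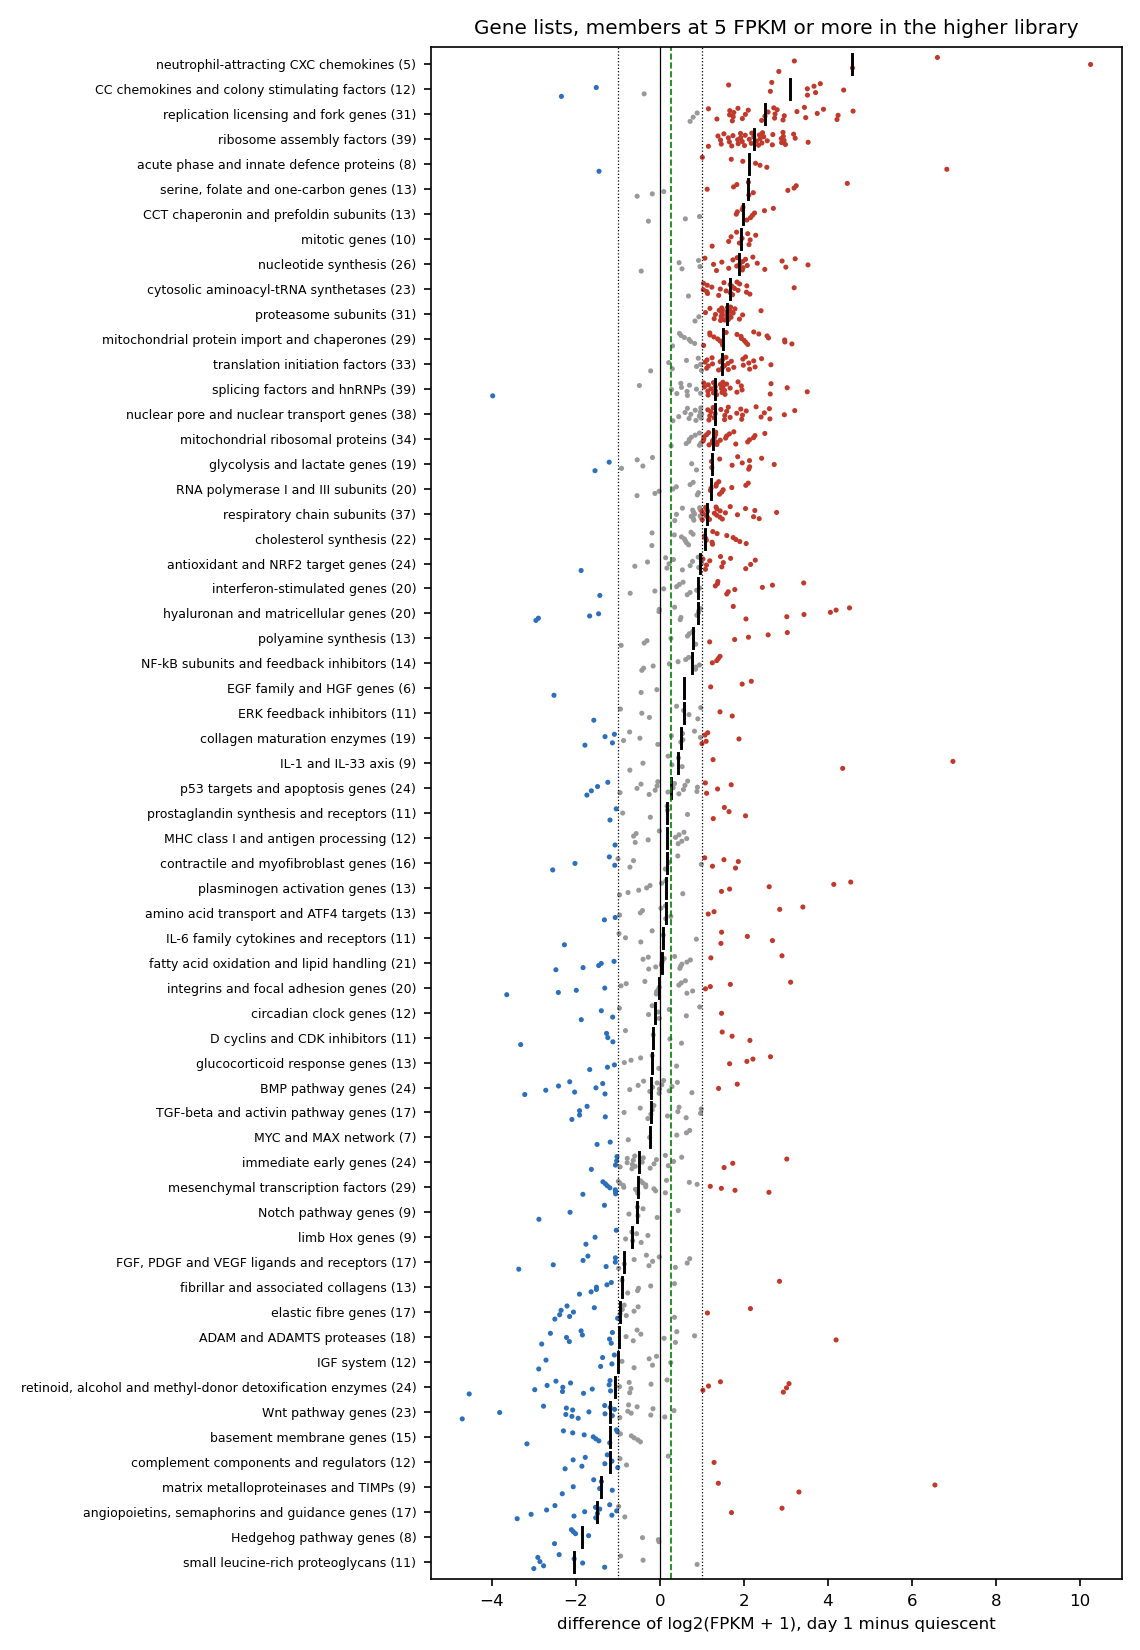
Difference of log2(FPKM + 1), day 1 minus quiescent, for each member (points, at least 5 FPKM in the higher library) of the 61 gene lists with at least 5 such members, with list medians (black bars), the median of all genes at 0.26 (dashed green line) and 2-fold limits (dotted). Chemokines, replication genes and ribosome assembly factors lie at the top, and small leucine-rich proteoglycans, Hedgehog genes and guidance genes at the bottom.

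Immediate early genes, transcribed within minutes of a stimulus, were abundant in both libraries. Fos stood at 1056 FPKM at day 1 and 1389.9 in quiescent, Junb at 778 at day 1 and 1171 in quiescent and Zfp36 at 933 at day 1 and 1448 in quiescent. Of 25 such genes 24 reached 5 FPKM, and 3 were higher and 4 lower (2 and 12 rescaled). Of the 24, 3 reached 5 FPKM only at day 1, Fosl1 and Nr4a2 among them, and 1 in quiescent alone, Arc. The direction of these was set by the filter. The higher ones were Fosl1 (13.2 at day 1 and 0.752 in quiescent), Nr4a2 (15.5 at day 1 and 3.94 in quiescent) and Ier3 (411 at day 1 and 142 in quiescent), and Egr1 (448 at day 1 and 934 in quiescent), Klf2 (119 at day 1 and 371 in quiescent), Atf3 (116 at day 1 and 239 in quiescent) and Arc (3.05 at day 1 and 7.23 in quiescent) were the lower ones.

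Of the transcription factors of mesenchymal cells, a few were higher and more were lower. Among 34 genes in the table, 29 reached 5 FPKM, with 4 higher and 8 lower (1 and 15 rescaled). Of the 29, 2 reached 5 FPKM only at day 1, Runx1 and Runx2, and 2 in quiescent alone, Snai2 among them. The direction of these was set by the filter. Runx1 had 11.5 FPKM at day 1 and 1.06 in quiescent, and Runx2, the bone lineage factor, 5.86 at day 1 and 0.986 in quiescent. Cebpb, a factor of acute phase genes and of early adipogenesis, had 418 at day 1 and 151 in quiescent. Nfix (27.3 at day 1 and 99.9 in quiescent), Snai2 (1.89 at day 1 and 5.89 in quiescent), Ebf2 (11.96 at day 1 and 32.2 in quiescent) and Osr2 (32.6 at day 1 and 75.7 in quiescent) were lower. Twist1 (73.3 at day 1 and 65.6 in quiescent), Twist2 (20.8 at day 1 and 19.0 in quiescent) and Prrx1 (116 at day 1 and 62.1 in quiescent) lay within 2-fold. Limb Hox genes were lower in 3 of the 9 that reached 5 FPKM and higher in none (6 and 0 rescaled), with Hoxd9 at 2.27 FPKM at day 1 and 10.1 in quiescent. Of these 9, 4 reached 5 FPKM in quiescent alone, Hoxd9 among them.

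Of 11 D cyclin and CDK inhibitor genes that reached 5 FPKM, 3 were higher and 4 lower (3 and 5 rescaled). Among all genes 22.3% were higher and 12.4% lower as deposited, and 876 and 1982 of 8262 rescaled. The CDK inhibitor Cdkn1c, known for holding cells in quiescence, had 5.63 FPKM at day 1 and 65.0 in quiescent, and Cdkn1b (17.7 at day 1 and 44.2 in quiescent), Cdkn1a (50.2 at day 1 and 119.9 in quiescent) and the RB relative Rbl2 (3.41 at day 1 and 8.59 in quiescent) were lower too. The G1 cyclin gene Ccnd1 had 59.5 FPKM at day 1 and 12.7 in quiescent, and its partner Cdk4 221 at day 1 and 66.4 in quiescent. Ccnd3, the other abundant D cyclin, had 42.7 at day 1 and 47.8 in quiescent and was not called. Myc had 128 FPKM at day 1 and 78.1 in quiescent, within 2-fold, while its antagonists Mxd4 (19.9 at day 1 and 46.6 in quiescent) and Mxi1 (2.73 at day 1 and 9.53 in quiescent) were lower.

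Replication genes were higher almost without exception among those that reached the filter. Of 38 in the table, 31 did, 16 of them only at day 1, and 28 were higher and none lower (26 and 0 rescaled). The 6 subunits of the replicative helicase were all called, Mcm2 with 43.0 FPKM at day 1 and 1.32 in quiescent, Mcm3 with 54.5 at day 1 and 2.73 in quiescent, Mcm4 with 49.0 at day 1 and 6.52 in quiescent, Mcm5 with 48.6 at day 1 and 1.04 in quiescent, Mcm6 with 75.6 at day 1 and 6.98 in quiescent and Mcm7 with 59.3 at day 1 and 6.74 in quiescent. The licensing factor Cdt1 had 23.7 FPKM at day 1 and 1.27 in quiescent, the sliding clamp Pcna 267 at day 1 and 44.0 in quiescent and the GINS subunit Gins1 15.2 at day 1 and 0.462 in quiescent. Uhrf1, which carries DNA methylation through replication, had 35.8 at day 1 and 0.977 in quiescent. Ccne1 and Ccne2, the cyclins of S phase entry, did not reach 5 FPKM and stood at 4.76 and 1.52 FPKM at day 1 and 0.176 and 0.0918 in quiescent.

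Mitotic genes were still low at day 1. Of 30 in the table, 10 reached 5 FPKM, every one of them only through the day 1 library, so their direction follows from the filter. The highest was Birc5, which encodes survivin, with 8.39 FPKM at day 1 and 1.42 in quiescent. Mki67 had 1.89 at day 1 and 0.451 in quiescent, Plk1 1.81 at day 1 and 0.746 in quiescent, and the kinase Cdk1 5.05 at day 1 and 0.388 in quiescent. Mki67 was at 26.1 FPKM at day 2 and 14.63 at day 3, when all 6 helicase genes were already lower than at day 1.

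Genes that build ribosomes were higher throughout. All 39 ribosome assembly factors in the table reached 5 FPKM, 8 of them only at day 1, and all 39 were higher (35 rescaled), with a median difference of 2.24 against 0.26 over all genes. Nhp2 and Nop58, core proteins of small nucleolar particles, had 202 and 157 FPKM at day 1 and 16.5 and 16.0 in quiescent. Wdr12, of the PeBoW complex that processes rRNA, had 23.7 at day 1 and 2.32 in quiescent, and nucleophosmin, Npm1, 1183 at day 1 and 154 in quiescent. The smallest difference of the list was that of Bysl, with 23.7 at day 1 and 10.1 in quiescent. Subunits of RNA polymerases I and III were higher in 11 of 20 cases and lower in none (4 and 1 rescaled), out of 27 in the table, with 7 of the 20 reaching 5 FPKM only at day 1. Polr1e had 10.6 FPKM at day 1 and 1.81 in quiescent, and Taf1d, of the polymerase I initiation complex, 48.8 at day 1 and 10.6 in quiescent, while Maf1, the repressor of polymerase III, was at 25.7 at day 1 and 38.0 in quiescent.

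Ribosomal proteins themselves moved by less and weighed more. This list was added after its genes were seen among the largest gains. It held 81 genes in the table, of which 79 reached 5 FPKM, and 55 were higher and none lower (20 and 0 rescaled). Together they made up 27.1% of all FPKM at day 1 and 16.6% in quiescent. In FPKM the largest gains after Mt2 were Rpl41, with 7726 at day 1 and 2130.3 in quiescent, Rplp2 with 6493 at day 1 and 1898 in quiescent, Rplp1 with 6169.9 at day 1 and 1736 in quiescent and Rps12 with 6516 at day 1 and 2477 in quiescent. Ribosomal protein genes have many processed pseudogenes, so their values are uncertain where reads map to several places.

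Translation factors and the enzymes that charge tRNAs were higher. All 23 cytosolic aminoacyl-tRNA synthetase genes reached 5 FPKM in both libraries, and 22 were higher (13 rescaled). Eef1e1, a scaffold of the synthetase complex, had 67.5 FPKM at day 1 and 6.46 in quiescent, and the glycyl enzyme Gars 107 at day 1 and 28.8 in quiescent. Qars was the one not called, with 39.3 at day 1 and 24.2 in quiescent. Of 34 initiation factors 33 reached 5 FPKM in both libraries and 25 were higher and none lower (15 and 0 rescaled). Eif5a, the hypusine-bearing factor, had 1667 FPKM at day 1 and 266 in quiescent, Eif4a1 855 at day 1 and 159 in quiescent and the cap-binding protein Eif4e 68.1 at day 1 and 15.8 in quiescent. The related helicase Eif4a2 had 91.7 at day 1 and 107 in quiescent and was not called. The elongation factor Eef2 was among the steadiest abundant genes, with 769.8 FPKM at day 1 and 751 in quiescent.

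Nuclear traffic, splicing and folding genes were higher alongside. Nuclear pore and transport genes numbered 40, of which 38 reached 5 FPKM, 8 of them only at day 1, and 25 were higher (17 of 34 rescaled). The GTPase Ran had 381 FPKM at day 1 and 40.2 in quiescent, its binding protein Ranbp1 408 at day 1 and 65.6 in quiescent, and its exchange factor Rcc1 33.6 at day 1 and 4.68 in quiescent. Of 39 splicing factors and hnRNPs 28 were higher and 1 lower (12 and 2 rescaled). Hnrnpa1 had 451 FPKM at day 1 and 38.7 in quiescent and Snrpa1, of the U2 particle, 103 at day 1 and 11.7 in quiescent. The lower one, Hnrnpd, is listed at exactly 0 at day 1, at 14.8 FPKM in quiescent and at 32.5 at day 2. It was the only row at 0 in 1 library alone, where 312 rows are at 0 in all 8, so its day 1 value may be a failed estimate and no fold is given. All 8 subunits of the CCT chaperonin, which folds actin and tubulin, were higher, with Cct3 at 252 FPKM at day 1 and 37.9 in quiescent. Of 31 proteasome subunits 29 were higher (17 rescaled), between Psmd14 with 105 FPKM at day 1 and 18.9 in quiescent and Psmd8, not called, with 111 at day 1 and 61.6 in quiescent.

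Building blocks for nucleic acids and one-carbon units followed the same direction. Of 27 nucleotide synthesis genes 26 reached 5 FPKM and 21 were higher and none lower (17 and 0 rescaled), 6 of the 26 reaching it only at day 1. The nucleoside diphosphate kinase Nme1 had 250.01 FPKM at day 1 and 20.8 in quiescent, the dCTP pyrophosphatase Dctpp1 132 at day 1 and 13.3 in quiescent and the CTP synthase Ctps 63.8 at day 1 and 7.62 in quiescent. The ribonucleotide reductase subunit Rrm2 had 15.5 at day 1 and 1.07 in quiescent. Of 16 serine, folate and one-carbon genes 13 reached 5 FPKM, 6 only at day 1, and 10 were higher and none lower (9 and 0 rescaled). Psat1 had 80.3 FPKM at day 1 and 2.68 in quiescent, the cytosolic enzyme Shmt1 9.43 at day 1 and 0.138 in quiescent, and Mthfd2, of the mitochondrial folate cycle, 45.1 at day 1 and 3.86 in quiescent. Outside these lists, asparagine synthetase, Asns, had 46.0 at day 1 and 3.43 in quiescent, while its activator Atf4 was at 229 FPKM at day 1 and 191 in quiescent, and Nupr1, a target of the same factor, was lower with 143 at day 1 and 300.4 in quiescent. These genes come from a list of amino acid transport genes and ATF4 targets in which 4 of 13 were higher and 2 lower. Among all genes 22.3% were higher and 12.4% lower as deposited. When rescaled, 2 of 12 members of the list were higher and 4 lower, beside 876 and 1982 of 8262 genes. The large amino acid transporter Slc7a5, of the same list, had 51.1 at day 1 and 6.21 in quiescent. Ornithine decarboxylase, Odc1, had 129 at day 1 and 20.7 in quiescent and spermidine synthase, Srm, 242 at day 1 and 28.6 in quiescent, both of polyamine synthesis, where 5 of 13 genes were higher and none lower (4 and 1 rescaled).

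Mitochondrial genes were higher at day 1, with fewer calls when rescaled. Import and chaperone genes were higher in 22 of 29 cases (14 rescaled), with Hspd1 at 339.95 FPKM at day 1 and 42.4 in quiescent and Timm8a1 at 67.3 at day 1 and 6.72 in quiescent. Mitochondrial ribosomal proteins were higher in 25 of 34 (10 rescaled), with Mrps22 at 26.9 at day 1 and 4.94 in quiescent. Respiratory chain subunits were higher in 24 of 37 (8 rescaled), with Cox5a at 309 FPKM at day 1 and 44.2 in quiescent and cytochrome c, Cycs, at 58.7 at day 1 and 10.6 in quiescent. None of these 3 lists had a lower member, also when rescaled.

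Glycolysis genes were higher in 11 of the 19 that reached 5 FPKM and lower in 2 (8 and 4 rescaled). Of the 19, 1 reached 5 FPKM only at day 1 and 3 in quiescent alone, both lower genes among them, so their direction was set by the filter. Ldha, the lactate dehydrogenase of glycolytic cells, had 597 FPKM at day 1 and 89.5 in quiescent, and Ldhb, the other isoform, 3.05 at day 1 and 10.8 in quiescent. Pgk1 had 223 at day 1 and 40.8 in quiescent, the hexokinase Hk2 49.0 at day 1 and 10.4 in quiescent, and the lactate and pyruvate carrier Slc16a1 38.5 at day 1 and 8.12 in quiescent. Cholesterol synthesis genes were higher in 12 of 22 (5 of 19 rescaled), with Fdps at 125 FPKM at day 1 and 29.3 in quiescent. Of these 22, 4 reached 5 FPKM only at day 1. In a list of fatty acid oxidation and lipid handling, 14 of 21 genes lay within 2-fold, 2 were higher and 5 lower (1 and 5 rescaled), with examples within 2-fold in Acadl with 40.5 at day 1 and 31.5 in quiescent and Hadh with 32.6 at day 1 and 31.2 in quiescent. Among the called ones were Angptl4, an inhibitor of lipoprotein lipase, at 127 FPKM at day 1 and 16.0 in quiescent, and the lipase Lpl itself at 18.6 at day 1 and 108 in quiescent.

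Antioxidant and detoxification genes separated by family. Of 24 NRF2 target and antioxidant genes that reached 5 FPKM, 11 were higher and 1 lower (4 and 2 rescaled). Thioredoxin reductase, Txnrd1, had 59.8 FPKM at day 1 and 12.6 in quiescent, glutathione reductase, Gsr, 43.8 at day 1 and 8.27 in quiescent, and mitochondrial superoxide dismutase, Sod2, 46.0 at day 1 and 10.4 in quiescent. The secreted peroxidase Gpx3 was the lower one, with 263 at day 1 and 969.8 in quiescent. The metallothioneins Mt1 (5047 at day 1 and 1199 in quiescent) and Mt2 (9018 at day 1 and 1939.96 in quiescent), which bind zinc and respond to glucocorticoids and metals, were among the most abundant transcripts of the day 1 library. Of 24 retinoid, alcohol and methyl-donor enzymes that reached 5 FPKM, 5 in quiescent alone and 2 only at day 1, 12 were lower and 6 higher (16 and 3 rescaled). Inmt, an indolethylamine methyltransferase, had 10.1 FPKM at day 1 and 258 in quiescent, Gstm1 87.0 at day 1 and 566 in quiescent and Ephx1 27.1 at day 1 and 122 in quiescent. The retinoic acid side ran the other way, with the synthesis enzymes Aldh1a2 (171 at day 1 and 19.4 in quiescent) and Rdh10 (48.1 at day 1 and 5.39 in quiescent) and the binding protein Crabp1 (13.2 at day 1 and 0.751 in quiescent) higher.

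Matrix genes that resting progenitors express strongly were lower. Of 11 small leucine-rich proteoglycans that reached 5 FPKM, 8 were lower and none higher (9 and 0 rescaled), with a median of -2.04. Decorin, Dcn, had 1837 FPKM at day 1 and 4577 in quiescent, Ogn 75.2 at day 1 and 313 in quiescent, Fmod 6.07 at day 1 and 55.7 in quiescent and Podn 12.8 at day 1 and 98.8 in quiescent. Biglycan, Bgn, had 729 at day 1 and 394 in quiescent and lumican, Lum, 250.2 at day 1 and 331 in quiescent, and both lay within 2-fold. Basement membrane genes were lower in 10 of 15 cases and higher in none (15 and 0 rescaled). Col15a1 had 14.7 FPKM at day 1 and 140.03 in quiescent, the laminin chain Lama2, whose loss causes a muscular dystrophy, 17.6 at day 1 and 90.7 in quiescent and Nid2 6.51 at day 1 and 30.7 in quiescent. The type IV collagens Col4a1 (252 at day 1 and 363 in quiescent) and Col4a2 (148 at day 1 and 227 in quiescent) were not called.

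Fibrillar and associated collagens, taken as 1 list, were lower in 6 of 13 cases and higher in 1 (10 and 1 rescaled). Col1a2 had 685 FPKM at day 1 and 1528 in quiescent, Col6a1 230.3 at day 1 and 719 in quiescent and Col14a1 35.2 at day 1 and 136 in quiescent. Col1a1 (628 at day 1 and 1174 in quiescent) and Col3a1 (1246 at day 1 and 2121 in quiescent) fell short of the 2-fold call. The higher one was the short-chain collagen Col8a1, with 60.4 at day 1 and 7.52 in quiescent. Elastic fibre genes were lower in 8 of 17 and higher in 2 (14 and 1 rescaled), with elastin, Eln, at 30.7 FPKM at day 1 and 161 in quiescent, Ltbp4 at 88.3 at day 1 and 505 in quiescent, and Ltbp2, a higher one, at 12.9 at day 1 and 2.12 in quiescent. Of 19 enzymes that mature collagen 5 were higher and 4 lower, beside 22.3% higher and 12.4% lower among all genes. The rescaled counts were 1 and 6, beside 876 and 1982 of 8262 genes. Lysyl oxidase, Lox, was at 67.6 FPKM at day 1 and 17.6 in quiescent and the procollagen proteinase Bmp1 at 93.4 at day 1 and 233 in quiescent.

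Hyaluronan and matricellular genes were called in both directions. Prg4, the lubricant lubricin, had 887 FPKM at day 1 and 37.8 in quiescent, tenascin C, Tnc, 62.6 at day 1 and 2.81 in quiescent, Thbs1 163 at day 1 and 19.1 in quiescent and the hyaluronan receptor Cd44 124 at day 1 and 10.5 in quiescent. Tnfaip6, which modifies hyaluronan, had 739 at day 1 and 178 in quiescent, and osteopontin, Spp1, 41.9 at day 1 and 1.34 in quiescent. Of the 20 hyaluronan and matricellular genes that reached 5 FPKM, 7 were higher and 4 lower (7 and 4 rescaled). The lower ones were fibronectin, Fn1 (292 at day 1 and 806 in quiescent), Sparcl1 (26.7 at day 1 and 214 in quiescent), Nov (25.3 at day 1 and 194 in quiescent) and Thbs3 (29.1 at day 1 and 94.99 in quiescent). Integrins and focal adhesion genes were higher in 4 of 20 cases and lower in 4, beside 22.3% higher and 12.4% lower among all genes. Their rescaled counts were 2 and 6, beside 876 and 1982 of 8262 genes. The fibronectin receptor chain Itga5 had 124 FPKM at day 1 and 38.1 in quiescent, the actin crosslinker Actn1 75.3 at day 1 and 7.81 in quiescent, and the collagen receptor chain Itga11 3.61 at day 1 and 56.8 in quiescent. Contractile and myofibroblast genes were higher in 5 of 16 cases and lower in 4, beside 22.3% and 12.4% of all genes. Their rescaled counts were 2 and 7, beside 876 and 1982 of 8262 genes. In this list the actin-bound Cald1 had 216 at day 1 and 61.3 in quiescent, and the smooth muscle proteins Myl9 (12.5 at day 1 and 54.1 in quiescent) and Myh11 (0.243 at day 1 and 6.30 in quiescent) were lower. Myh11 reached 5 FPKM in quiescent alone, so its direction was set by the filter, and it is itself counted among the mural markers above.

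Proteolysis genes were called in both directions. Timp1, an inhibitor of metalloproteinases, had 1581 FPKM at day 1 and 15.9 in quiescent, while its relatives Timp2 (231 at day 1 and 1164 in quiescent) and Timp3 (55.6 at day 1 and 236 in quiescent) were lower. The stromelysin Mmp3 had 242 FPKM at day 1 and 23.4 in quiescent and Mmp19 38.2 at day 1 and 14.0 in quiescent, and the gelatinase Mmp2 (194 at day 1 and 579.6 in quiescent) and the membrane protease Mmp14 (105 at day 1 and 277 in quiescent) were lower. Of 20 metalloproteinase and TIMP genes 9 reached 5 FPKM, and 3 were higher and 6 lower (2 and 6 rescaled). Adam12 had 23.7 FPKM at day 1 and 0.346 in quiescent, and it was the only one of 18 ADAM and ADAMTS genes called higher, against 9 lower (1 and 12 rescaled). The plasminogen activator inhibitor Serpinb2 (25.8 at day 1 and 0.145 in quiescent) was higher, as was the urokinase receptor Plaur with 71.4 at day 1 and 10.9 in quiescent. The activator Plau had 473 FPKM at day 1 and 324 in quiescent and was not called. Of 13 plasminogen activation genes that reached 5 FPKM, 5 were higher and none lower (4 and 3 rescaled).

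Genes of the Wnt and Hedgehog pathways were lower in the larger part of those that reached 5 FPKM, and none was higher. Of 45 Wnt pathway genes in the table, 23 reached 5 FPKM, 10 only in quiescent, and 14 were lower and none higher (19 and 0 rescaled). The ligands Wnt10b (2.06 at day 1 and 42.1 in quiescent), Wnt11 (11.3 at day 1 and 46.6 in quiescent) and Wnt9a (2.57 at day 1 and 15.9 in quiescent), the secreted antagonists Sfrp4 (32.7 at day 1 and 141 in quiescent) and Sfrp5 (1.81 at day 1 and 18.2 in quiescent) and the intracellular modulators Dact1 (18.7 at day 1 and 91.4 in quiescent) and Dact2 (4.78 at day 1 and 150.1 in quiescent) were all lower. The feedback target Axin2 had 0.502 FPKM at day 1 and 4.45 in quiescent, under the filter, and Wnt2 36.3 at day 1 and 33.4 in quiescent. Hedgehog genes were lower in 5 of the 8 that reached 5 FPKM, 3 of the 8 in quiescent alone, and in 5 when rescaled. The target Gli1 had 0.765 at day 1 and 9.06 in quiescent, the co-receptors Boc 7.79 at day 1 and 35.7 in quiescent and Cdon 9.72 at day 1 and 45.2 in quiescent, while the transducer Smo was at 20.1 FPKM at day 1 and 20.6 in quiescent.

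Several ligands of the BMP and TGF-beta family were lower, while more genes of both lists lay within 2-fold than were called. Bmp4 had 4.96 FPKM at day 1 and 38.3 in quiescent, Bmp7 1.47 at day 1 and 22.0 in quiescent, Bmp5 5.45 at day 1 and 27.6 in quiescent and Bmp2 12.7 at day 1 and 38.3 in quiescent. Tgfb2 (5.78 at day 1 and 24.6 in quiescent) and Tgfb3 (6.62 at day 1 and 31.6 in quiescent) were lower and Tgfb1 was at 12.5 at day 1 and 17.6 in quiescent. The BMP targets Id1 (29.3 at day 1 and 21.7 in quiescent) and Id3 (359 at day 1 and 376 in quiescent) were within 2-fold, and the inhibitor Smad7 was higher, with 34.9 FPKM at day 1 and 9.01 in quiescent. Follistatin, Fst, which binds activin and myostatin and is known to come from these cells in regeneration, had 69.4 at day 1 and 59.4 in quiescent. In the BMP list 8 of 24 genes were lower and 2 higher (9 and 1 rescaled), and in the TGF-beta list 5 of 17 were lower and none higher (6 of 16 and 0 rescaled). Of the 24 BMP genes, 5 reached 5 FPKM in quiescent alone and 1 only at day 1.

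In the IGF system 6 of 12 genes were lower and none higher (8 and 0 rescaled). The binding proteins Igfbp6 (338 at day 1 and 2223 in quiescent), Igfbp5 (137 at day 1 and 1016 in quiescent) and Igfbp4 (244 at day 1 and 652 in quiescent) were lower, Igfbp7 (383 at day 1 and 405 in quiescent) was not called, and Igf1, the ligand, had 8.08 FPKM at day 1 and 16.0 in quiescent. Fgf1 (1.70 at day 1 and 14.7 in quiescent), Pdgfrl (2.79 at day 1 and 38.0 in quiescent) and Pgf (6.69 at day 1 and 26.4 in quiescent) were lower in a list of FGF, PDGF and VEGF genes, where 7 of 17 were lower and none higher (10 of 16 and 0 rescaled). The neurotrophin gene Ntf3 had 2.30 FPKM at day 1 and 18.0 in quiescent. The EGF receptor ligands Ereg (5.48 at day 1 and 0.433 in quiescent) and Hbegf (6.69 at day 1 and 2.32 in quiescent) were higher as deposited, in a list of EGF family and HGF genes where 3 of 6 were higher and 1 lower (1 of 4 and 1 rescaled). Of these 6, 2 reached 5 FPKM only at day 1, Ereg and Hbegf, and 1 in quiescent alone, Ntf3, so their direction was set by the filter. Notch genes that reached 5 FPKM were lower in 3 of 9 and higher in none (6 and 0 rescaled). Of these 3, Notch3 (0.873 at day 1 and 7.26 in quiescent) and Heyl (0.423 at day 1 and 9.49 in quiescent) reached 5 FPKM in quiescent alone. Their direction was therefore set by the filter. Both are also known in mural cells, and Notch3 is itself counted among the mural markers above.

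Angiopoietin-like, semaphorin and axon guidance genes were lower in 13 of 17 and higher in 2, of 38 in the table (15 and 2 rescaled), with 5 of the 17 reaching 5 FPKM in quiescent alone. Angptl1 had 5.80 FPKM at day 1 and 70.9 in quiescent, Sema3b 5.09 at day 1 and 38.6 in quiescent, Sema3c 41.2 at day 1 and 145 in quiescent, Slit3 30.4 at day 1 and 87.0 in quiescent and netrin 1, Ntn1, 35.6 at day 1 and 105 in quiescent. Tek, the angiopoietin receptor, had 7.34 at day 1 and 68.9 in quiescent, and is itself counted among the endothelial markers above. Efnb2, an ephrin, was higher with 17.4 at day 1 and 4.64 in quiescent. Genes of p53 and apoptosis were higher in 4 of 24 cases and lower in 4, not far from the shares of all genes, 22.3% and 12.4%. Their rescaled counts were 1 and 6, beside 876 and 1982 of 8262 genes. The effector Bax had 175 FPKM at day 1 and 53.3 in quiescent, and Trp53inp1 0.809 at day 1 and 5.04 in quiescent. The median of the list, 0.25, turned to -0.04 by the median ratio.

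A total of 72 genes stood at 5 FPKM or more at day 1 and under 1 in quiescent, and 76 the reverse. At the head of the gained genes are Cxcl5, Il1rl1, Cxcl3 and Saa3, followed by Steap1, a membrane protein of the STEAP family, with 47.9 FPKM at day 1 and 0.656 in quiescent. Further down stood Hmga2, a chromatin protein of embryonic and transformed cells, with 12.3 at day 1 and 0.169 in quiescent, and Hells, a chromatin remodeller of dividing cells, with 18.1 at day 1 and 0.403 in quiescent. The lost genes were headed by Rgs5, a mural gene, with 0.981 FPKM at day 1 and 35.3 in quiescent, and by Ramp1, a subunit of the CGRP receptor, with 0.929 at day 1 and 25.1 in quiescent. Mrgprg and Chp2 were listed at the floor at day 1, against 13.4 and 7.33 FPKM in quiescent. Of the genes named in this paragraph, Hmga2 and Hells were chosen after their values were seen.

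In FPKM the largest loss was Gsn, and the next were abundant genes of resting fibroblasts. Clec3b, the plasminogen-binding tetranectin, had 413 FPKM at day 1 and 2995 in quiescent, Pi16, a marker of resting adventitial fibroblasts, 259 at day 1 and 2362 in quiescent, and myocilin, Myoc, 109 at day 1 and 1813 in quiescent. At the other end, abundant genes with the smallest difference were H2-D1 (315 at day 1 and 318 in quiescent), Tmsb10 (1006 at day 1 and 1039 in quiescent), Loxl1 (287 at day 1 and 297 in quiescent) and Ubb (688 at day 1 and 664 in quiescent). These differences are close to 0 on FPKM as deposited and are negative under each rescaling.

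The other libraries show when the genes called at day 1 were highest or lowest. Among the 7 injured libraries, day 1 held the highest level for 1203 of the 1926 higher genes (62.5%), day 2 for 590 (30.6%) and day 3 for 109 (5.66%). Of the 1070 lower genes, 695 (65.0%) were lowest at day 1 and 260 (24.3%) at day 2. Over all 8647 genes, 31.3% were highest and 21.0% lowest at day 1, and 21.4% and 11.6% at day 2. The called genes were chosen by their day 1 level, which favours day 1 in their shares. On the log2(FPKM + 1) scale, the median level of the higher genes in the quiescent library and in those of days 1, 2, 3, 4, 5, 7 and 10 was, in this order, 3.66, 5.31, 5.09, 4.53, 4.02, 4.14, 3.94 and 3.81. For the lower genes the medians of the same libraries were 4.24, 2.58, 2.92, 3.39, 3.77, 3.70, 4.00 and 4.06, with that of day 10 closest to quiescent. The quiescent and day 1 values of these medians follow from the choice of the genes.

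Single genes differed in how long the day 1 level lasted. In the quiescent library and at days 1, 2, 3 and 10, Cxcl3 had 0.356, 132, 5.81, 0.963 and 0.126 FPKM and Serpinb2 0.145, 25.8, 1.08, 0.725 and 0.154. Both were under 1 FPKM from day 3 on. In the same libraries Timp1 had 15.9, 1581, 1277, 605 and 172 FPKM and was still above its quiescent level in the last library. Mcm5 had 1.04, 48.6, 41.6, 13.0 and 2.77. Among lower genes, Dact2 had 150.1, 4.78, 6.14, 10.6 and 83.0 FPKM there, and Wnt10b had 42.1, 2.06, 1.299, 2.71 and 19.7. Mrgprg, a Mas-related receptor gene, had 13.4 in quiescent and 2.12 at day 10, and was at the floor at days 1 and 2.

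**Figure D4:**
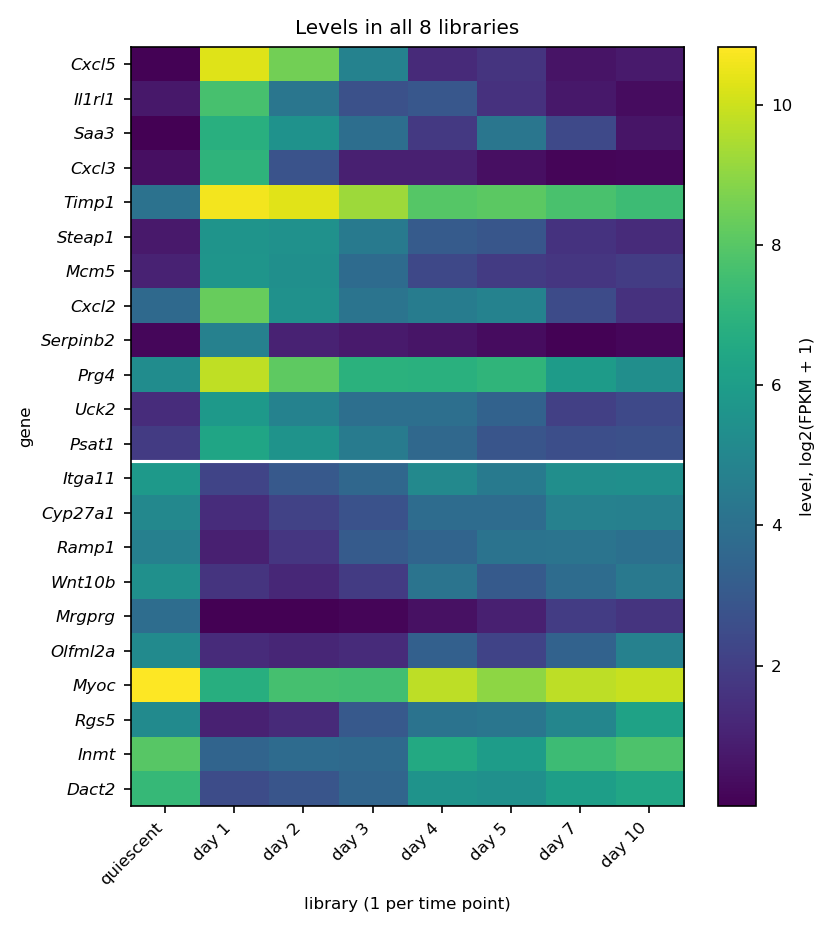
Level as log2(FPKM + 1) of the named genes with the largest differences (rows, 12 higher above the white line and 10 of the lower ones under it, without Hnrnpd) in the 8 libraries in order of time (columns). Cxcl3 and Serpinb2 are bright at day 1 only, while Timp1 stays bright through day 10 and Myoc, Inmt and Dact2 dim at days 1 to 3.

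A pair of libraries that enter neither side of the comparison was used to see whether the called genes also differ early against late. Of the 8647 genes, 1553 were at least 2-fold higher at day 2 than at day 10 (18%) and 766 lower (8.86%). Among the genes called higher at day 1, 1223 of 1926 (63.5%) were higher at day 2 than at day 10 and 3 were lower, with a median difference of 1.22. Among those called lower, 599 of 1070 (56.0%) were lower at day 2 and 3 higher, with a median of -1.14. The genes within 2-fold at day 1 were higher in 5.79% and lower in 2.90%, with a median of 0.10. Of the 1553 compared genes higher at day 2 than at day 10, 78.8% had been called higher at day 1. Of the 766 lower ones, 78.2% had been called lower. Genes under 5 FPKM both at day 1 and in quiescent are outside these shares. Mki67, with 26.1 FPKM at day 2 and 3.40 at day 10, is such a gene. Day 3 against day 7, a closer pair, gave 5.16% higher and 4.33% lower among the 8647 genes. In that pair 17.0% of the genes called higher and 27.9% of those called lower moved 2-fold the same way.

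**Figure D5:**
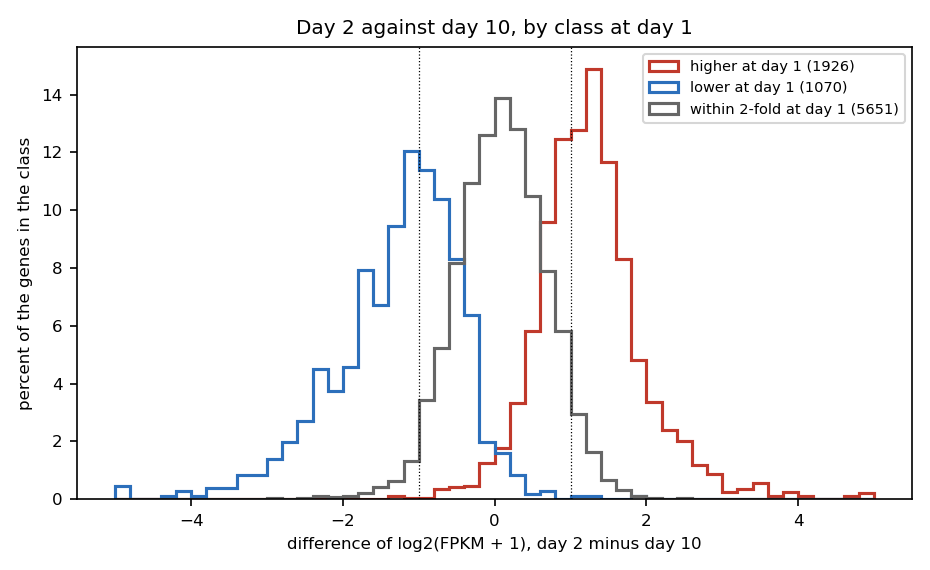
Distribution of the difference of log2(FPKM + 1), day 2 minus day 10, for genes called higher at day 1 (red), lower (blue) and within 2-fold (grey), as percent of the genes in each class, with values beyond the axis drawn in the end bins and dotted lines at 2-fold. The medians are 1.22, -1.14 and 0.10, and the red and blue distributions overlap little.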

How the data were processed

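RNA was sequenced from sorted progenitors as polyA stranded libraries, per the labels' protocols. The deposited table gives FPKM per gene, made by the authors with bcl2fastq, TopHat2, Bowtie2 and Cufflinks on mm10, per the submitters' processing notes; the sources used here give no versions, annotation or treatment of reads with several matches. The table holds no counts, so depth was estimated in single-transcript genes (GENCODE M21), where 81.2% of low values at day 1 and 77.9% in quiescent lay within 0.15 of a whole fragment, against 30% by chance. A value of 0.001 was read as a floor.

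Differences of log2(FPKM + 1), counts, list medians and motif matches were computed with Python 3.11.15 and pandas 2.3.3. The 2-fold calls after median-ratio scaling and the length correction were tested on simulated data with known changes. List medians and motif matches were not. Genes were named by a rule (12 largest increases and decreases at 10 FPKM or more, 8 largest gains and losses of FPKM, 6 at the floor in 1 library and 6 steady genes, up to 3 members of each of 62 lists in each direction, a fixed set), and other list members were named after their values were seen. Some genes that the rule names are not reported here. The members and lists were chosen with earlier results of these data known.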

Additional observations from a re-analysis of the deposited data

How the results depend on the processing

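With 1 library per time point, differences between mice, sorts and library preparations were not measured, and no paired analysis was possible because each group has 1 library. Counts of 2-fold calls stayed within 1.5 times those reported (1926 higher, 1070 lower) with a pseudocount of 0.1, a filter at 1 FPKM or none, upper-quartile scaling, short rows kept, repeated symbols left out and the length correction. With a pseudocount of 5, 638 genes were 2-fold lower, 202 were 4-fold higher and 95 were 4-fold lower. A filter at 20 FPKM left 494 genes 2-fold and 168 genes 4-fold lower. By the median ratio 1264 genes were 2-fold and 260 genes 4-fold higher. With a common sum 876 were 2-fold higher and 1982 lower, and 190 were 4-fold higher and 507 lower. Lists with a median of at least 1 numbered 21 as reported and 13 with a common sum, and those at -1 or less 15 as reported, 25 with a common sum and 9 with no filter. With day 3 against day 7 in place of day 2 against day 10, 328 of the higher genes were higher and 298 of the lower genes lower, against 1223 and 599. The median of satellite cell markers turned to 1.34 at 20 FPKM, where 1 gene is left, so this value is the difference of that gene alone. Of the other list medians and named genes under these settings, 717 and 2827 values stayed on their side of the 2-fold call, and 71 and 70 did not.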
